A study of Mus musculus with 2148 samples.

Results

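The cytochrome P450 genes of the mouse were followed across single thymic epithelial cells. Members were all genes of the count table whose symbol is Cyp, a number, a letter and a number, pseudogenes excluded (GRCm38 annotation). The rule gave 93 of 48437 genes, and it left out 6 protein-coding genes whose symbols have another form (Cyp51, Cyp2ab1, Cyp4a12a, Cyp4a12b, Cyp3a41b and Cyp4a30b) and 30 pseudogenes. The members lay on 14 chromosomes and together held 906902 of 1424841034 reads, or 0.0636%.

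Thymic epithelial cells of C57BL/6 mice were sorted singly and sequenced by RamDA-seq, in which oligo(dT) and random primers copy total RNA over its full length. Cortical cells (cTEC) were sorted as Ly51-positive, and medullary cells (mTEC) as Ly51-negative with high (mTEChi) or low (mTEClo) surface MHC class II. The study asked which genes single mTECs transcribe and how that depends on Aire, the transcriptional regulator through which mTEChi express genes of other tissues, so knockout (Aire-KO) mice were included. The cells fell into 8 groups.

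Adult wild-type (WT) mTEChi comprised 620 cells in 4 pools, where a pool is all cells of a group with the same age and sex label. Pool 1 held cells of 4-week-old males (22.42% of all cells), pool 2 held 12 cells of 5-week-old males, pool 3 held 82 cells of 6-week-old males and pool 4 held 82 cells of 4-week-old females. Adult WT mTEClo, 18.0% of all cells, had cells of 8-week-old males in pool 1 (10.96% of all cells), 74 cells of 5-week-old males in pool 2 and 66 cells of 4-week-old males in pool 3. The Aire-KO groups held 17.1% (mTEChi) and 7.78% (mTEClo) of all cells, each from 5-week-old males and each 1 pool. Adult WT cTEC were 77 cells of 6-week-old males, also 1 pool. Neonatal WT mice, 1 day old and of unknown sex, gave 8.64% (mTEChi), 6.26% (mTEClo) and 7.02% (cTEC) of all cells, 1 pool each. The labels do not number the mice, so a pool may hold several animals. Adult WT and Aire-KO cells came from different experimental batches, as did adult mTEChi and mTEClo, so batch cannot be told apart from genotype or sort in adults. The 3 neonatal groups shared 5 batches.

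Cytochrome P450 enzymes are heme proteins that insert an oxygen atom into their substrates, with electrons from the reductase Por in the endoplasmic reticulum or from adrenodoxin in mitochondria. Some make or remove hormones and signals such as steroids, retinoic acid, vitamin D and bile acids, and many others, mainly in liver, gut, lung and nose, oxidise drugs, toxins and fatty acids. Several are autoantigens of adrenal and liver disease in patients who lack AIRE. Retinoic acid, which the Cyp26 enzymes remove, has known roles in thymic epithelium.

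The region around the transcription start is printed for 4 members: Cyp26a1 and Cyp26b1, the retinoic acid enzymes highest in mTEChi and in cTEC, Cyp1a2, which had the lowest adjusted p between Aire-KO and WT batches, and its neighbour Cyp1a1, called between mTEChi and mTEClo. Each window is RefSeq sequence of GRCm38.p6 on the strand of its gene, 5′ to 3′, from 250 bases before the start to 50 bases after it. The windows are chr19:37697558-37697857 (+) for Cyp26a1, chr6:84593761-84594060 (−) for Cyp26b1, chr9:57697363-57697662 (+) for Cyp1a1 and chr9:57683606-57683905 (−) for Cyp1a2. Capitals mark, in Cyp26a1, a match on the opposite strand to AGTTCA repeated after 5 bases of any letter, a direct repeat of the kind bound by retinoic acid receptors. In Cyp1a1 they mark GCGTG, the core of the element bound by the aryl hydrocarbon receptor, and in Cyp1a2 the TATA box letters TATAAA. The Cyp26b1 window has no match to the repeat and no capitals. TATAAA also occurs in the Cyp26a1, Cyp26b1 and Cyp1a1 windows, where it is left unmarked.
Cyp26a1: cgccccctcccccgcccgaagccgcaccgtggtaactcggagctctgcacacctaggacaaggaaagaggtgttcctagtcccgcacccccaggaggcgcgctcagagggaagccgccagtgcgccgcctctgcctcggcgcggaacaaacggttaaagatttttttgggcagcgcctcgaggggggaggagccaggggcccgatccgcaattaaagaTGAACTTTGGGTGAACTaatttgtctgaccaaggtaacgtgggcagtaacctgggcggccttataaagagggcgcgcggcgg
Cyp26b1: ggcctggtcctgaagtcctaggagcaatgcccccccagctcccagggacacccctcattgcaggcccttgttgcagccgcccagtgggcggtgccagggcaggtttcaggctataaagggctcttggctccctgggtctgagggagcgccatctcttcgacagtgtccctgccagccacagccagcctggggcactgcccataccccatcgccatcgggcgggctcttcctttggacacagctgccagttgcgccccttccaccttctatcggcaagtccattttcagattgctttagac
Cyp1a1: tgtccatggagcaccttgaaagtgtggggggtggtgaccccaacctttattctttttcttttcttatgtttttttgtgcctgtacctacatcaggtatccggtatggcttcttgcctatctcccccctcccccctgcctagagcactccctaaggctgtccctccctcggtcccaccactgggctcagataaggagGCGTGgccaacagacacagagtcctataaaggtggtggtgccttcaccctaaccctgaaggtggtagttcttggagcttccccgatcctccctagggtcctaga
Cyp1a2: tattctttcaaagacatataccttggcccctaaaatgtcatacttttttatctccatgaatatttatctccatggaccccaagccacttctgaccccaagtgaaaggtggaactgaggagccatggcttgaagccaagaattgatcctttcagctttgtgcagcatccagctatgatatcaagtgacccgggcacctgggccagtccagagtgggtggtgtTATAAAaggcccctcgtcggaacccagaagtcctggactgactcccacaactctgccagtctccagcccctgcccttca

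The repeat of Cyp26a1 began 32 bases before the start. It occurred in 7 of 27025 mouse windows of this length (0.0259%), and Cyp26a1 was its only member. The GCGTG of Cyp1a1 began 54 bases before the start and the TATAAA of Cyp1a2 29 bases before it. A match is only a run of letters in the window, and no binding was measured.

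Cells held 203010 to 1823784 reads each (median 692880), and the median per group ran from 532926.5 to 862537. Levels are given as CPM, the counts-per-million scale, over the summed cells of a pool. Aire itself was at 1109.7 to 1844.6 CPM in the adult WT mTEChi pools and at 26.1 in the Aire-KO mTEChi pool. The cTEC markers Psmb11 and Prss16 were at 732.4 and 1765.6 CPM in adult cTEC and at 915.6 and 1859.4 in neonatal cTEC. The neonatal mTEClo pool also held Psmb11 at 283.7 and Prss16 at 723.9 CPM. The sum of 10 tuft cell markers was 620, 5531 and 6116 CPM in adult mTEClo pools 1, 2 and 3, against 68.3 to 474.3 in adult WT mTEChi. In summed cells, fewer cells with a transcript and less RNA per cell cannot be told apart, so shares of cells are given beside the levels. Those shares are also given after each cell was thinned to 200000 reads, since depth differed between groups.

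Every member had reads, but their distribution over cells differed widely. For description, members were divided by the values themselves, so these classes carry no test. Broad members (11) had a read in at least 20% of the cells of each of the 8 groups and held 44.78% of all member reads. They were Cyp2a5, Cyp2j6, Cyp2t4, Cyp4f13, Cyp4f16, Cyp4f17, Cyp4v3, Cyp7b1, Cyp20a1, Cyp27a1 and Cyp39a1. Just inside the limit were Cyp27a1 and Cyp39a1, with lowest shares of 20.1% and 20.4%, and just outside were Cyp1b1 and Cyp2g1, with 18.9% and 16.1%.

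One member, Cyp26b1, was highest in both cTEC groups, and 3 (Cyp1b1, Cyp2f2 and Cyp2d11) were highest in a single cTEC group. Another 10 peaked in an mTEClo group and held 8.09% of member reads. The largest class was of members that peaked in an mTEChi group. In 15 of them at least 20% of the cells of that group had a read (frequent members, 25.43% of member reads). In the other 52 fewer cells did (rare members, 7.64%). Cyp26c1 at 20.8% and Cyp4f18 at 18.1% lay on either side of that limit. Cyp2c40, with 7 reads over all cells, was left unclassed.

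**Figure D1:**
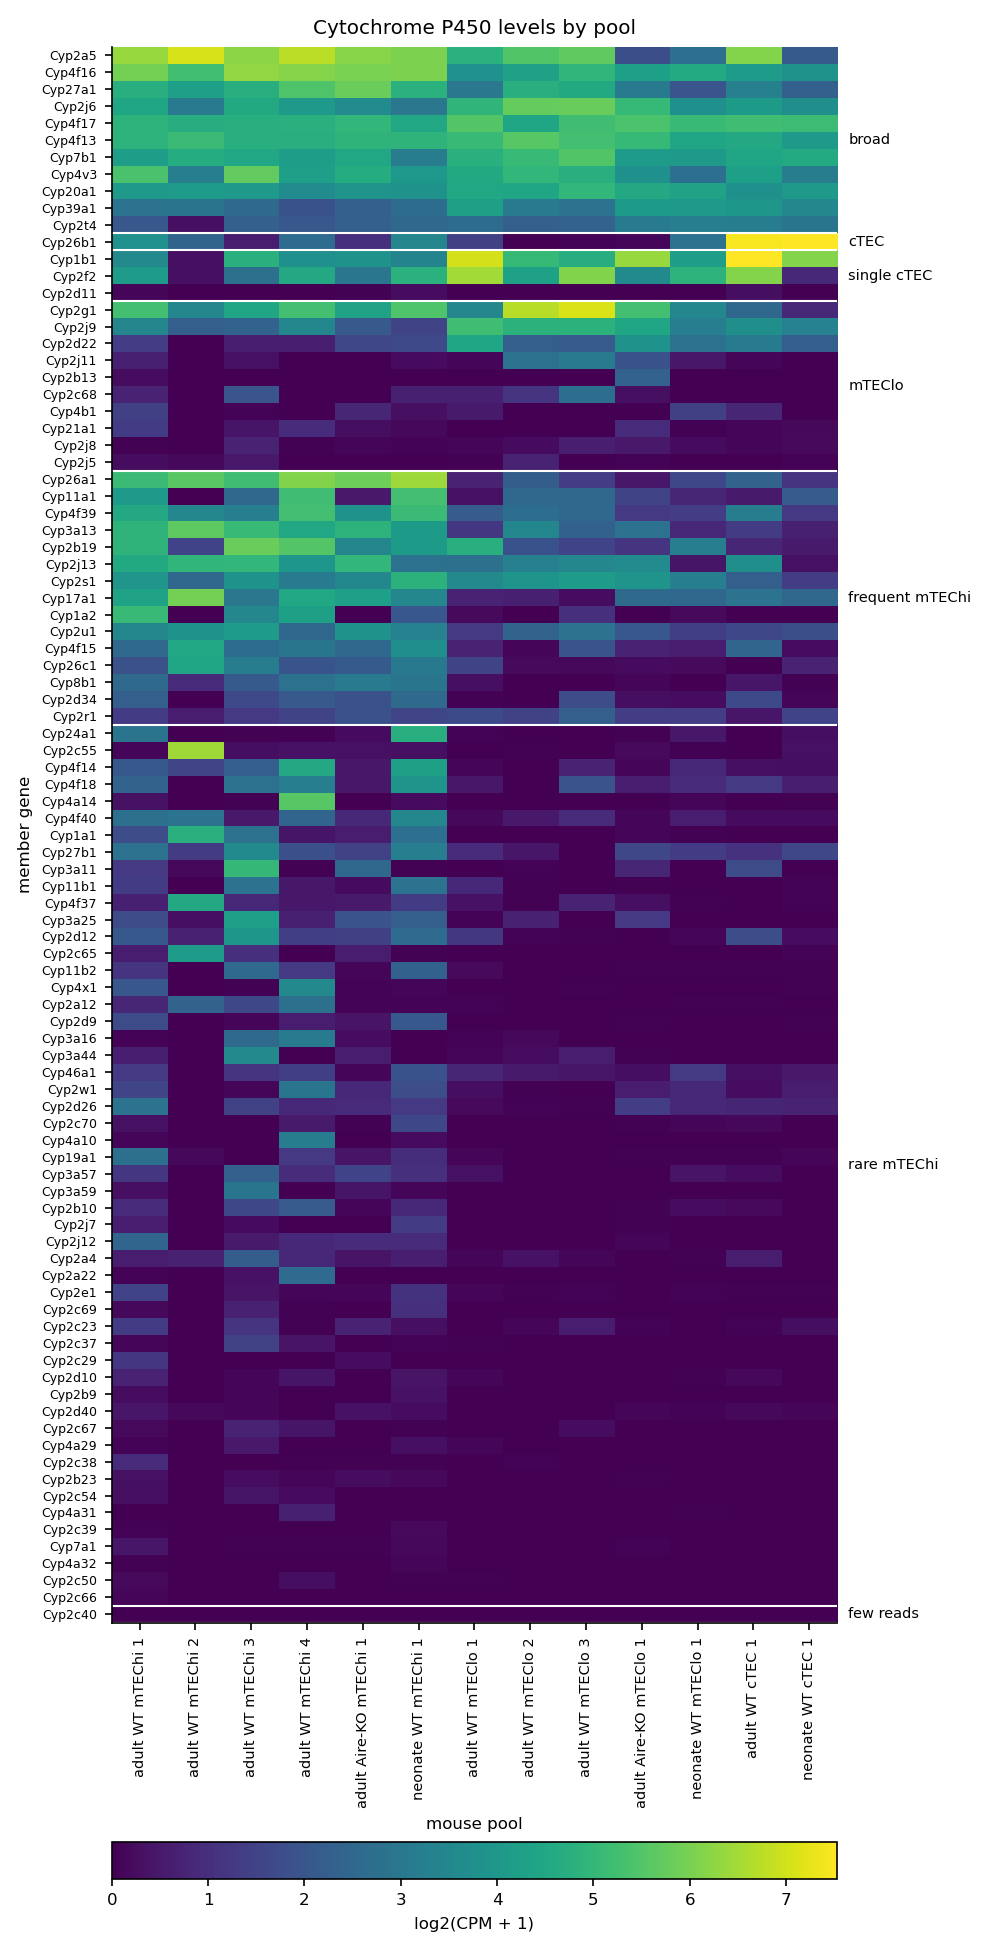
Heat map of log2(CPM + 1) for the 93 members (rows, ordered by class) in the 13 pools (columns, ordered by group), with lighter cells for higher levels. Broad members are filled in every column, Cyp26b1 stands out in the 2 cTEC columns, and the 52 rare members have most of their signal in mTEChi columns, often in 1 or 2 pools.

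Rare members rested on few cells. The 10 cells with most reads held a median of 92.45% of a rare member's reads (53.2% to 100%), against 33.11% for frequent and 8.315% for broad members. A rare member had a read in a median of 44 cells (2.22% of all cells), and a broad one in 65.7%. The steepest case was Cyp2c55, an arachidonic acid hydroxylase of the gut: 1 cell held 680 of its reads, or 76.06%. That cell was in adult WT mTEChi pool 2, where Cyp2c55 reached 86.7 CPM, while the other 3 pools were at 0.074, 0.215 and 0.289. In mTEClo the same held for Cyp2b13, with 84.8% of its reads in 1 Aire-KO cell. Values of single rare members in a pool are therefore values of a few cells.

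Classes followed the families only in part. Family 2, the large group that oxidises drugs and toxins, had 28 rare members among 47, with 3 broad, 5 frequent and 8 highest in mTEClo. Family 3 had 6 rare members of 7, the exception being the frequent member Cyp3a13. Family 4, fatty acid hydroxylases, had 10 rare members among 17, with 4 broad and 2 frequent. Of 6 bile acid and oxysterol enzymes, 3 were broad.

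Per kilobase of exon, the highest member of adult WT mTEChi was Cyp2a5, a toxin-oxidising enzyme of liver and nose, at 47.5 CPM per kb. Cyp26a1 followed at 23.4 and the fatty acid hydroxylase Cyp4f16 at 20.1. In adult WT mTEClo the order was Cyp2g1, an olfactory enzyme, at 39.1 CPM per kb, the lung enzyme Cyp2f2 at 28.7 and Cyp2a5 at 19.6. In adult cTEC 4 members stood close together: Cyp2f2 at 34.1, Cyp2a5 at 33.6, Cyp26b1 at 32.5 and Cyp1b1 at 31.5 CPM per kb. Neonatal cTEC kept Cyp26b1 at 34.0 and Cyp1b1 at 11.95, with Cyp2a5 at 1.63 and Cyp2f2 at 0.405 CPM per kb.

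Adult WT mTEChi against mTEClo was the one comparison with several pools on both sides. Cyp genes were called in both directions: 12 were higher in mTEChi and 3 were lower, of 90 tested. Cyp2c40, Cyp2c66 and Cyp4a32 did not pass the filter on low counts. A call required a Benjamini-Hochberg adjusted p under 0.05 over all 39971 genes tested in edgeR's quasi-likelihood fit, and a fold of at least 2. Of all genes tested, 7.54% were called higher and 4.13% lower. The median log2 difference was 3.21 over the members and 0.30 over all genes, and 71 of 90 members (78.89%) had a positive difference, against 57.17% of all genes. By class, all 50 rare members tested and 13 of 15 frequent ones were positive, classes that peak in an mTEChi group by definition. Of the others, 3 of 11 broad members, 3 of 10 that peaked in mTEClo, 1 of 3 highest in a single cTEC group and Cyp26b1 were positive. The excess over all genes is therefore no test of the family. Cyp17a1 and Cyp26a1 were called in all 13 settings tried, Cyp2j9 in 12 and Cyp2a12 in 10, and the other 11 in 5 to 8. The count of calls fell to 4 without mTEChi pool 1, to 5 without pool 3 or without pool 4, and to 4 without mTEClo pool 2 or without pool 3.

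Counts of calls varied with the unit. With experimental batches in place of pools, 46 members were higher and 5 lower of 88, where 25.8% of all genes were higher and 9.21% lower. DESeq2 on the pools called 35 higher and 4 lower of 79, where 26.7% of all genes were called in either direction. Batches of 1 pool may share mice, so their p-values measure the spread between batches and not between mice. Batches also did not always lie within a pool: the 12 cells of mTEChi pool 2 were in a batch of 17 cells with cells of pool 3.

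Of the 3 enzymes of retinoic acid clearance, 1 was called, higher in mTEChi. Cyp26a1, the main enzyme that oxidises all-trans retinoic acid, was at 34.3, 48.1, 35.98 and 67.4 CPM in the adult WT mTEChi pools and at 0.693, 3.65 and 1.56 in mTEClo. The groups did not overlap, and the difference was 4.42 ± 0.60 (log2 ± SE, adjusted p = 0.00533 by edgeR). The remaining mTEChi pools were alike, at 57.5 CPM in Aire-KO and 84.2 in neonates, and Aire-KO mTEClo (0.403), neonatal mTEClo (2.10), adult cTEC (4.30) and neonatal cTEC (1.20) were low. A read was present in 48.7% of adult WT mTEChi cells, 35.8% after thinning, and in 9.2% of mTEClo cells, 5.0% after thinning.

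Cyp26b1, which removes retinoic acid in other tissues and is encoded elsewhere in the genome, was highest in cTEC, at 173.7 CPM in adult and 182.2 in neonatal cTEC. The adult WT mTEChi pools were at 13.0, 4.38, 0.532 and 5.22, the mTEClo pools at 1.71, 0 and 0.043, and neonatal mTEChi and mTEClo at 9.81 and 5.95. Both cTEC pools therefore lay above all 11 mTEC pools, which is what placed it in its class. A read was found in 66.2% of adult and 89.2% of neonatal cTEC (53.2% and 80.6% after thinning), and in 14.8% of adult WT mTEChi (9.2%).

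Cyp26c1, the neighbour of Cyp26a1 on chromosome 19, was at 2.65, 20.8, 8.15 and 2.87 CPM in adult WT mTEChi and at 1.93, 0.150 and 0.128 in mTEClo, without overlap, but was not called. Of the 77 adult WT mTEChi cells with at least 5 reads of Cyp26c1, 64 also had at least 5 of Cyp26a1. Over the 620 cells, Cyp26c1 was the gene most like Cyp26a1 among all genes (Pearson r = 0.569 on log2(CPM + 1)), and the next genes had r = 0.343 and 0.342. This correlation is over cells, which share batches and depth, and is a description.

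Among 16 other genes of the retinoic acid pathway, 4 were higher in mTEChi and none lower. They were the retinaldehyde dehydrogenases Aldh1a2 (log2 difference 5.24, adjusted p = 0.0232) and Aldh1a3 (2.212, adjusted p = 0.0191), which make retinoic acid, the retinol importer Stra6 (4.50, adjusted p = 0.00318) and the nuclear receptor Rxrg (5.53, adjusted p = 0.0258), all by edgeR. The remaining 12 of the list were not called.

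Of the 6 enzymes of steroid hormone synthesis, 2 were called higher in mTEChi. Cyp17a1, which makes androgen precursors, was at 19.1, 61.4, 6.94 and 21.4 CPM in mTEChi and at 0.640, 0.584 and 0.192 in mTEClo, again without overlap. Its difference was 5.60 ± 0.93 on the log2 scale (adjusted p = 0.0103, edgeR). Cyp21a1, which makes corticoid precursors and whose human counterpart is an adrenal autoantigen, had only 2 reads in all adult WT mTEClo, so the ratio of its reads was 138.04, with a counting interval of 38.05 to 1142.5. Its mTEChi pools were at 1.51, 0, 0.345 and 0.948 CPM (adjusted p = 0.0408, edgeR), and without pool 1 the ratio was 60.9. Its highest level outside these pools was 0.872 CPM in Aire-KO mTEClo, the group that placed it among the members that peaked in mTEClo.

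Cyp11a1, which starts steroid synthesis by cleaving cholesterol, was at 16.0, 0, 4.71 and 36.5 CPM in mTEChi and at 0.276, 4.82 and 4.71 in mTEClo, so the groups overlapped and it was not called. The adrenal pair Cyp11b1 and Cyp11b2, which make the last steps to corticosterone and aldosterone, reached 6.29 and 4.94 CPM in mTEChi pool 3 and were at or under 1.53 CPM in the others. Of 11 adult WT mTEChi cells with at least 5 reads of Cyp11b2, 5 also had at least 5 of Cyp11b1, but as close copies they may share reads. Aromatase, Cyp19a1, reached 5.91 CPM in mTEChi pool 1 and 0.125, 0.014 and 1.36 in the others, and 1 cell held 56.19% of all its reads. Of 15 other steroid pathway genes, Hsd11b2, which inactivates corticosterone, and Hsd17b3, which makes testosterone, were higher in mTEChi (log2 differences 3.05 and 8.32). The mineralocorticoid receptor Nr3c2 was lower (−1.87). Hsd17b3 was near 0 in mTEClo, at 0.027, 0 and 0 CPM. Its mTEChi pools were at 3.047, 9.26, 7.38 and 0.021 CPM, with overlap through pool 4.

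None of the 3 vitamin D enzymes was called. Cyp27b1, which makes the active hormone, was at 6.05, 1.502, 11.2 and 2.60 CPM in mTEChi and at 0.907, 0.384 and 0 in mTEClo, without overlap. Cyp24a1, which destroys it, was at 6.46 CPM in mTEChi pool 1 and at 0, 0.029 and 0.021 in the other pools, and its highest level was 25.9 CPM in neonatal mTEChi. The 10 richest cells held 93.44% of its reads. Cyp2r1, which makes the circulating precursor, was at 0.501 to 1.896 CPM in mTEChi and 1.80 to 3.81 in mTEClo, with overlap (−1.13 ± 0.61 on the log2 scale, not called). In a list of receptors and liver factors, 4 of 17 were called higher in mTEChi and none lower. Among the 4 were the vitamin D receptor Vdr (log2 difference 1.71), Hnf4g (1.898) and the bile acid receptor Nr1h4 (6.11). Nr1h4 was low in both sorts, at 0.922, 0.125, 0.474 and 0.082 CPM in mTEChi and at 0.009, 0 and 0 in mTEClo.

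Bile acid and oxysterol enzymes included both broad and restricted members. Cyp8b1, which sets the share of cholic acid, was at 5.11, 0.876, 3.36 and 6.16 CPM in mTEChi and at 0.240, 0.017 and 0 in mTEClo (5.09 ± 1.40, adjusted p = 0.0485, edgeR). The oxysterol enzymes Cyp7b1 and Cyp39a1 were present in every pool, Cyp7b1 at 17.1 to 24.5 CPM in mTEChi and 26.2 to 44.1 in mTEClo. Cyp27a1, the mitochondrial sterol hydroxylase, ranged from 17.9 to 43.1 CPM in mTEChi and from 7.04 to 25.8 in mTEClo. Cyp7a1, the rate-limiting enzyme of bile acid synthesis in liver, was low. It reached 0.358 CPM in mTEChi pool 1 and had no read in any adult WT mTEClo pool. Cyp46a1, which clears cholesterol from brain, was at 0 to 1.63 CPM in mTEChi and 0.362 to 0.738 in mTEClo.

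The 3 genes induced through the aryl hydrocarbon receptor had 3 patterns. Cyp1a1, which oxidises aromatic hydrocarbons, was at 2.41, 26.3, 6.22 and 0.350 CPM in mTEChi and had no read in any mTEClo cell. Set against 3 reads in all mTEClo cells, the most that a count of 0 allows, it was at least 230.6-fold higher in mTEChi (adjusted p = 0.0284, edgeR), or 382.8-fold without pool 1. Cyp1a2, its neighbour and the caffeine-oxidising enzyme of liver, was at 32.7, 0, 10.2 and 18.6 CPM in mTEChi and 0.142, 0 and 1.02 in mTEClo, which overlapped because of the 12-cell pool 2. Cyp1b1, an enzyme of extrahepatic tissues, was at 10.6, 0.250, 26.6 and 12.8 CPM in mTEChi and at 131.5, 32.2 and 24.8 in mTEClo, so the groups overlapped, and it was not called. Cyp1b1 had a read in 79.2% of adult cTEC, 67.8% of adult WT mTEClo and 27.9% of adult WT mTEChi (76.6%, 62.2% and 21.5% after thinning).

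**Figure D2:**
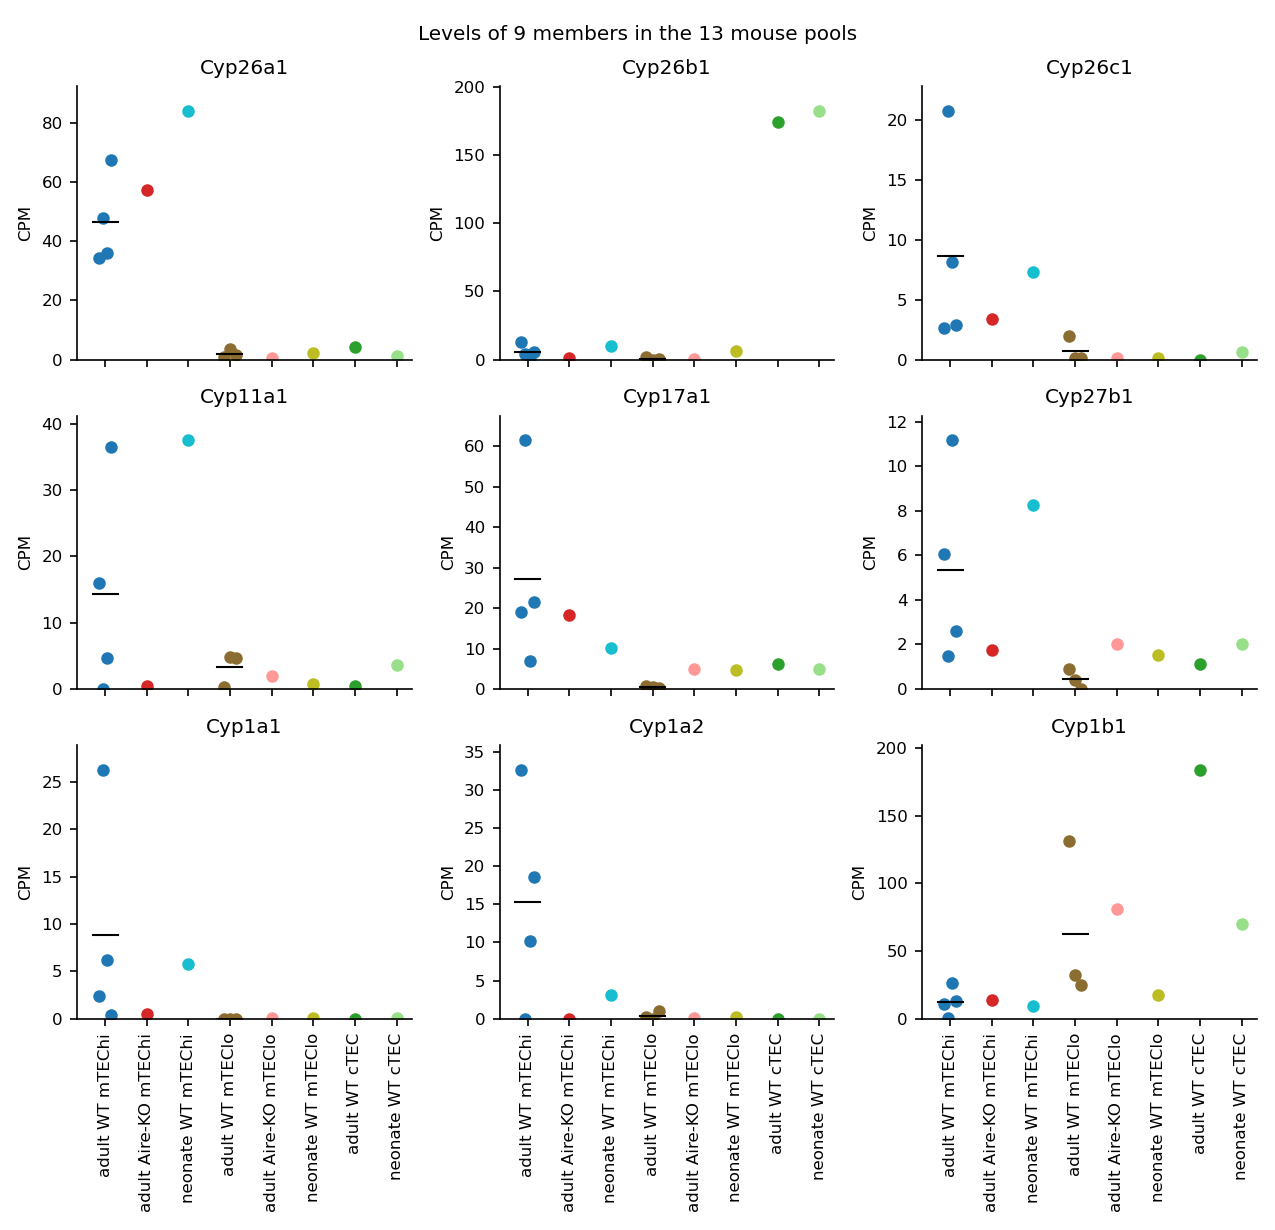
CPM of 9 members with known substrates or inducers in each of the 13 pools, by group, with 1 point per pool. Cyp26a1 is at 34.3 to 84.2 CPM in all 6 mTEChi pools and under 5 elsewhere, Cyp26b1 is above 170 only in the 2 cTEC pools, and Cyp1a2 is at 0.003 CPM in Aire-KO mTEChi.

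In family 2, 5 members were called higher in mTEChi and 3 lower. Cyp2a5 was at 81.2, 133.8, 73.004 and 106.05 CPM in mTEChi and at 27.2, 44.2 and 50.6 in mTEClo (1.102 ± 0.28, adjusted p = 0.0402, edgeR). It was also read in 65.8% of adult WT mTEClo cells. Cyp2a5 and its near copies Cyp2a4 and Cyp2a21-ps may share reads, and Cyp2a21-ps was the gene most like Cyp2a5 over the WT mTEChi cells (r = 0.540). Cyp2a12 was at 0.751, 4.26, 2.13 and 5.92 CPM in mTEChi and at 0.062, 0 and 0 in mTEClo (6.69 ± 1.498, adjusted p = 0.0265, edgeR). Cyp2b10, the phenobarbital-inducible enzyme of liver, and Cyp2j12 had 1 read each in adult WT mTEClo, and the ratios of their reads were 289.4 (counting interval 51.75 to 11449) and 761.6 (136.5 to 30101). Cyp2b10 was at 0.899, 0, 2.08 and 3.48 CPM in the mTEChi pools, and without pool 1 its ratio was 546.3. Cyp2j12 was at 4.52, 0, 0.460 and 0.783, with 51.48% of all its reads in 1 cell, and without pool 1 its ratio was 121.8.

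The Cyp2j genes, fatty acid epoxygenases in 1 cluster on chromosome 4, moved in both directions. Cyp2j9 was lower in mTEChi, at 9.73, 3.88, 4.15 and 9.94 CPM against 36.6, 27.4 and 27.8 (−2.35 ± 0.46, adjusted p = 0.0170). Cyp2j6 was lower as well, at 20.6, 7.76, 23.04 and 15.7 CPM against 29.6, 53.3 and 53.7 (−1.61 ± 0.39, adjusted p = 0.0340). Cyp2j13 was higher, at 23.007, 29.8, 30.6 and 14.5 CPM against 5.86, 8.67 and 10.2 (1.38 ± 0.37, adjusted p = 0.0448, all by edgeR). In each of these 3 the groups did not overlap.

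A further 3 members of family 2 varied strongly among the mTEClo pools. Cyp2d22, the third member called lower in mTEChi (−4.04 ± 1.101, adjusted p = 0.0474, edgeR), was at 21.1, 3.89 and 3.49 CPM in mTEClo and at 0 to 1.57 in mTEChi. Cyp2g1 was at 10.3, 104.996 and 136.3 CPM, high in the same mTEClo pools 2 and 3 that had tuft marker sums of 5531 and 6116 CPM. Cyp2f2 was at 87.8, 18.7 and 67.6. The part of tuft-like cells in these values was not tested.

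Cyp3a13, an intestinal member of family 3, was at 28.8, 49.6, 33.5 and 21.3 CPM in mTEChi and at 1.29, 10.1 and 4.03 in mTEClo (2.55 ± 0.65, adjusted p = 0.0399, edgeR). The genes most like it over WT mTEChi cells were Muc13, Ces2e and Hsd17b6 (r = 0.518, 0.516 and 0.493). The 6 members of the Cyp3a cluster on chromosome 5 were all rare, with Cyp3a11, the main drug-oxidising enzyme of mouse liver, at 31.3 CPM in mTEChi pool 3 and at 1.37, 0.125 and 0.021 in the others. In family 4, Cyp4f16 was called, at 60.9, 37.3, 78.2 and 70.7 CPM in mTEChi and 13.0, 18.9 and 30.0 in mTEClo (1.41 ± 0.35, adjusted p = 0.0363, edgeR). It was the most widespread member, with a read in 97.3% of WT mTEChi cells (93.7% after thinning). None of 7 electron donor genes was called, with Por at 50.3 to 60.3 CPM in mTEChi and 76.6 to 112.6 in mTEClo.

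For Aire-KO against WT, the knockout was 1 pool in each sort, assumed in the fit to vary like the pools of other groups. In mTEChi the fit over pools called 0 of 90 members, and 0.00% of all genes. At an unadjusted p under 0.05 there were 4, Cyp1a2, Cyp2c37, Cyp2c69 and Cyp2a12, all lower in the knockout, and the smallest adjusted p of a member was 0.925. DESeq2 called 2, Cyp1a2 (log2 difference −12.02, adjusted p = 0.00355) and Cyp2a12 (−5.80, adjusted p = 0.00886), where 2.25% of all genes were called. Over batches edgeR called 8 of 88 members lower and 0 higher, where 4.44% of all genes were lower and 1.23% higher. In the fit over pools 69 of 90 members (76.67%) had a negative difference, against 57.49% of all genes, and the median was −1.53 against −0.16. Without WT pool 1 these were 63.64% against 47.63%, with medians of −0.93 and 0.04. By class, with all pools, 47 of 50 rare members were negative, 8 of 15 frequent, 4 of 11 broad and 8 of 10 that peaked in mTEClo. So were 1 of 3 highest in a single cTEC group, and Cyp26b1. Rare members were chosen by peaking in an mTEChi group, so their direction is partly set by their class and carries no test.

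Cyp1a2 had the lowest adjusted p among members over batches. The pools were at 32.7, 0, 10.2 and 18.6 CPM in WT and 0.003 in the knockout, with overlap through pool 2. The cells of pool 2 shared a batch with cells of pool 3, so no batch stands for pool 2 alone. On the 9 WT batches it ran from 0.0788 to 79.1 CPM (median 13.0), and on the 4 knockout batches it was 0 on 3 and 0.0188 on the other, so batches did not overlap (−11.60 ± 2.15, adjusted p = 0.00184, edgeR over batches). In reads the WT cells held 13103 and the knockout cells 1, a ratio of 8036 with a counting interval of 1441.998 to 317417, and the ratio was 3737 without WT pool 1. A read was found in 25.3% of WT mTEChi and 0.3% of knockout mTEChi (14.2% and 0.3% after thinning).

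Cyp11a1 ran from 0 to 38.3 CPM over WT batches (median 14.6) and from 0.197 to 0.783 over knockout batches (−5.13 ± 1.22, adjusted p = 0.0119, edgeR over batches), with overlap through a WT batch at 0. In the fit over pools its difference was −4.96 ± 2.92 (adjusted p = 0.925). The share of cells with a read was 26.9% in WT and 6.8% in the knockout, or 17.1% and 3.6% after thinning. Cyp4f18, which oxidises leukotriene B4 in leukocytes, was at 4.22, 0, 6.13 and 8.41 CPM in the WT pools and 0.410 in the knockout, with overlap through pool 2 (−3.41 ± 2.77 over pools, adjusted p = 0.949, edgeR). Its batches were at 0.631 to 8.41 CPM over WT and 0.300 to 0.510 over knockout batches, without overlap (−3.32 ± 0.96, adjusted p = 0.0343, edgeR over batches).

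Of the other members called lower over batches, Cyp2a12 was at 0.0808 to 5.92 CPM in WT and 0 to 0.0858 in knockout batches, and Cyp4x1, a brain enzyme, at 0 to 10.9 and 0 to 0.207. Cyp2c37 had no read in the knockout, where it was at least 33.5-fold lower against a floor of 3 reads. Its WT pools were at 0.077, 0, 1.74 and 0.330 CPM, 1 cell held 56% of its reads, and the bound was 10.3 without pool 3 and 106.1 without pool 1. Cyp4a14, a fatty acid hydroxylase of liver induced through Ppara, and Cyp2d10 had 1 read each in the knockout, with WT to knockout ratios of 1436.3 (257.5 to 56754) and 159.5 (28.37 to 6322). For Cyp4a14 the WT value came almost wholly from pool 4, at 46.3 CPM against 0.265, 0 and 0.029 in the others, and without that pool the ratio was 64.8. Without pool 1 the ratio of Cyp2d10 was 51.1 and that of Cyp4a14 was 5224. Beside these members, the sum of 11 enterocyte and liver markers was 189.1 to 661.2 CPM in the WT pools and 393.2 in the knockout. The sum does not give the direction of single markers. Alb was at 21.7, 0.250, 2.03 and 3.19 CPM in the WT pools and 0.003 in the knockout. Hnf4a was at 9.05, 0.125, 24.5 and 18.4 CPM and 2.42, inside the WT range. The other markers of the list are not given singly.

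Other members were inside or above the range of the WT pools in the knockout. Cyp26a1 was at 57.5 CPM, inside the WT range of 34.3 to 67.4 (0.43 ± 0.71 over pools). Cyp17a1 was at 18.2 against 6.94 to 61.4 (−0.45 ± 1.09, and 0.42 without WT pool 2), with a read in 44.97% of knockout and 32.7% of WT cells (39.1% and 23.9% after thinning). Cyp27a1 was at 55.4, above all 4 WT pools, whose highest was 43.1 (1.103 ± 0.63), and its batches overlapped, at 13.1 to 43.1 CPM in WT and 38.0 to 65.9 in the knockout. None of these differences passed the test over pools or batches. Within the steroid list all 6 members had a negative difference, and by family 36 of 45 in family 2, 6 of 7 in family 3 and 12 of 16 in family 4. Other lists were more split, with 3 of 6 bile acid and oxysterol members negative. In the retinoic acid, vitamin D and aryl hydrocarbon receptor lists 2 of 3 were negative each. Of all genes, 57.49% had a negative difference. The counts by list and family include the rare members, of which 47 of 50 were negative.

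**Figure D3:**
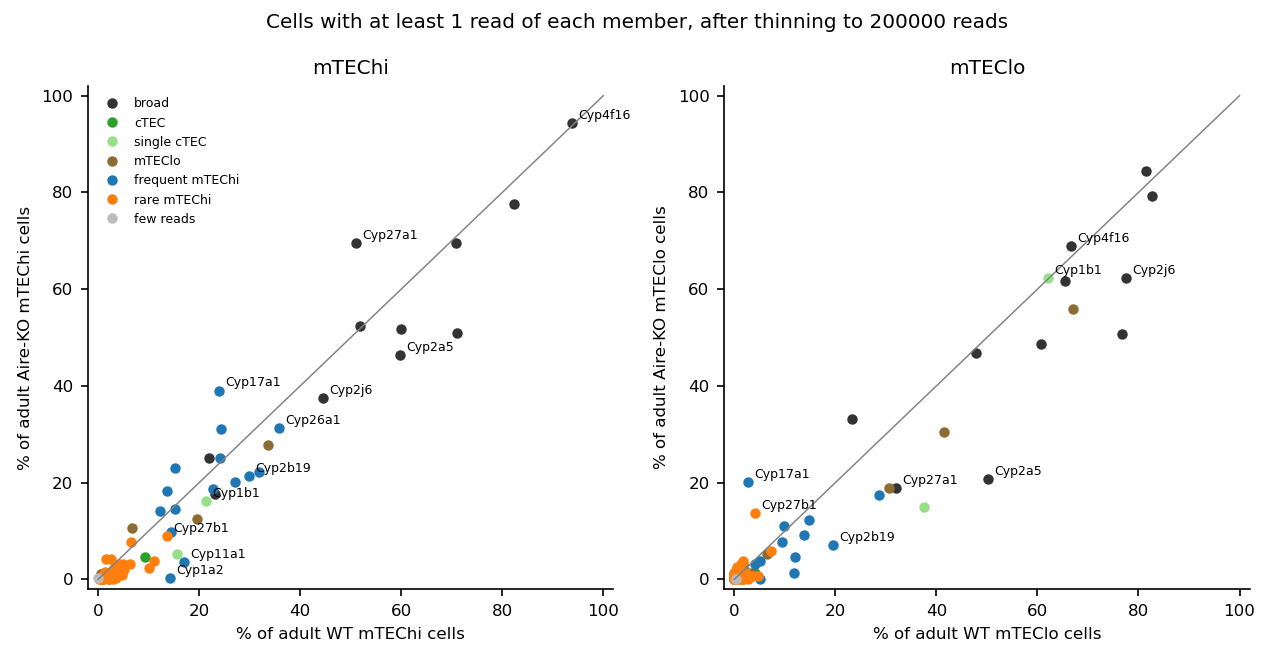
Percent of cells with at least 1 read after thinning to 200000 reads, in adult WT (x axis) and Aire-KO (y axis), for mTEChi and mTEClo, with 1 point per member coloured by class and a line of equality. In mTEChi Cyp1a2 (14.2% and 0.3%) and Cyp11a1 (17.1% and 3.6%) lie below the line, while Cyp17a1 (23.9% and 39.1%) and Cyp27a1 (51.1% and 69.5%) lie above the line.

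In mTEClo no member was called between Aire-KO and WT over pools, where 0.00% of all genes were called. There were 6 at an unadjusted p under 0.05. Over batches 0 were called and 9 had an unadjusted p under 0.05, with 0.203% of all genes higher and 0.0621% lower. DESeq2 called 1, Cyp2a5, where 0.810% of all genes were called. Cyp2a5 was at 27.2, 44.2 and 50.6 CPM in the WT pools and at 2.52 in the knockout (−3.97 ± 0.54, adjusted p = 0.352 by edgeR and 1.83e-09 by DESeq2). Batches did not overlap, at 14.7 to 50.6 CPM in WT and 2.02 to 3.13 in the knockout, and the share of cells with a read was 65.8% and 25.3% (50.1% and 20.8% after thinning).

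In mTEChi Cyp2a5 was at 71.8 CPM in the knockout and 73.004 to 133.8 in WT. The test of the difference between both effects of the knockout gave 3.64 ± 0.61 on the log2 scale with an adjusted p of 1.0, and no member passed it (7 at an unadjusted p under 0.05, by edgeR). Cyp17a1 pointed the other way in mTEClo, at 0.640, 0.584 and 0.192 CPM in WT and 5.07 in the knockout (3.40 ± 1.00, not called). The knockout mTEClo pool had a tuft marker sum of 1620.02 CPM, between those of the WT pools.

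For neonatal against adult WT mTEChi the fit over pools called 0 of 90 members and 0.00% of all genes, with 6 members at an unadjusted p under 0.05. DESeq2 called 1, Cyp3a44, where 0.108% of all genes were called. Cyp3a44 had no read in neonatal mTEChi and was at 0.538, 0, 10.7 and 0 CPM in the adult pools, so its adult value was that of 1 pool. Over batches 6 members were lower in neonates (0.873% of all genes) and none higher (0.913%). They were Cyp2j6, Cyp2j9, Cyp7b1, Cyp4v3, Cyp4x1 and Cyp2a12. Cyp2j9 was at 1.89 CPM in neonates and 3.88 to 9.94 in adults, and Cyp7b1 at 7.95 and 17.1 to 24.5. Cyp26a1 (84.2 CPM), Cyp11a1 (37.5) and Cyp24a1 (25.9) were above all 4 adult pools, and none was called.

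Neonatal against adult WT mTEClo gave 0 members over pools, where 0.00% of all genes were called (11 at an unadjusted p under 0.05). DESeq2 called 5, Cyp2j13, Cyp2a5, Cyp3a44, Cyp27a1 and Cyp2c68, where 5.73% of all genes were called. Over batches 10 were lower (8.92% of all genes) and 2 higher (7.08%), the latter being Cyp17a1 and Cyp2d26. The clearest were Cyp2j13, at 0.337 CPM in neonates against 5.86 to 10.2 in adults, and Cyp2a5, at 5.73 against 27.2 to 50.6. Their differences were −4.67 ± 0.74 (adjusted p = 0.102) and −2.89 ± 0.50 (adjusted p = 0.111) by edgeR. Beside these values the neonatal mTEClo pool had a sum of 3938 CPM over 10 cTEC markers, against 422.5 to 1262.1 in adult mTEClo, and its part in them was not tested.

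Adult cTEC, 1 pool, were compared with adult WT mTEChi and mTEClo. Most members were lower in cTEC than in mTEChi: 76 of 90 (84.44%) had a negative difference over pools, against 60.31% of all genes. The median log2 difference was −3.31 over the members and −0.49 over all genes. All 50 rare members tested and 14 of 15 frequent ones were negative, classes that peak in an mTEChi group by definition. Of the others, 5 of 11 broad members and 7 of 10 that peaked in mTEClo were negative, and none of the cTEC classes was. Adult cTEC also held 65059240 reads against 477663721 in adult WT mTEChi, so members read in few cells can be missed there. Against mTEChi the fit over 13 pools called no member, where 2.85% of 40148 genes were called, and 14 members had an unadjusted p under 0.05. DESeq2 called 20 members, where 18.0% of all genes were called. Adult cTEC were also a single batch, so other groups supplied the spread in every fit and batch cannot be told apart from sort. Over batches 3 were higher in cTEC (5.10% of all genes) and 1 lower (3.45%). The 3 were Cyp1b1 (4.09 ± 0.99, adjusted p = 0.00552), Cyp26b1 (4.27 ± 1.06, adjusted p = 0.00668) and Cyp2d22 (2.95 ± 0.85, adjusted p = 0.0206), and the lower one was Cyp4f16 (−1.75, adjusted p = 0.00597, all edgeR over batches). Over pools Cyp26b1 differed by 5.16 ± 1.69 (adjusted p = 0.152) and Cyp1b1 by 4.13 ± 1.27 (adjusted p = 0.131). Among the pathway lists, Dhrs3, which turns retinaldehyde back into retinol, and Nr3c2 were called higher in cTEC over pools (2.32 and 2.34).

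Against adult WT mTEClo no member was called over pools, where 0.0573% of all genes were called (9 at an unadjusted p under 0.05). DESeq2 called 5, Cyp26b1, Cyp17a1, Cyp26c1, Cyp2g1 and Cyp2r1, where 6.74% of all genes were called. Over batches 2 were higher, Cyp26b1 (7.44 ± 1.30, adjusted p = 0.00055) and Cyp17a1 (3.61, adjusted p = 0.0210), both by edgeR, with 2.01% of all genes higher, and 0 were lower (0.341%). Adult cTEC had Cyp1b1 at 183.8 CPM, above all mTEClo pools, of which the highest was 131.5. Neonatal cTEC had it at 69.8, inside the mTEClo range. Adult and neonatal cTEC had no replicate and were not tested against each other. Cyp2a5 was at 69.6 CPM in adult and 3.38 in neonatal cTEC, and Cyp2f2 at 69.1 and 0.821.

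The number of members read in 1 cell was counted in each pool. After thinning to 200000 reads, adult WT mTEChi had 12.1, 10.5, 11.9 and 12.8 members per cell in pools 1 to 4 (mean 11.8 ± 0.96, SD, n = 4), and mTEClo had 12, 9.38 and 10.1 (10.5 ± 1.35, n = 3). The pools overlapped and the difference of 1.31 members gave p = 0.1714 in an exact two-sided permutation test, which cannot go below 0.0571 here. Without thinning the means were 15.2 and 12.9 (exact permutation p = 0.1143). With at least 5 reads required in thinned cells, the means were alike, at 5.76 and 5.74 (exact permutation p = 0.9714). At 1 read in thinned cells, single pools gave 10.4 in Aire-KO mTEChi, 9.23 in Aire-KO mTEClo, 12.8 in neonatal mTEChi, 10.0 in neonatal mTEClo, and 11.8 and 11.5 in adult and neonatal cTEC.

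Rare members alone differed more, as their class was chosen to, and are given without a test. The WT mTEChi pools held 1.36, 1.33, 1.55 and 1.88 rare members per thinned cell, the knockout 0.731 and neonatal mTEChi 1.68, while the mTEClo pools held 0.284 to 0.535. No rare member was read in 30.0% of WT mTEChi cells, 54.1% of knockout mTEChi cells and 66.7% of WT mTEClo cells (13.1%, 36.1% and 45.7% before thinning).

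**Figure D4:**
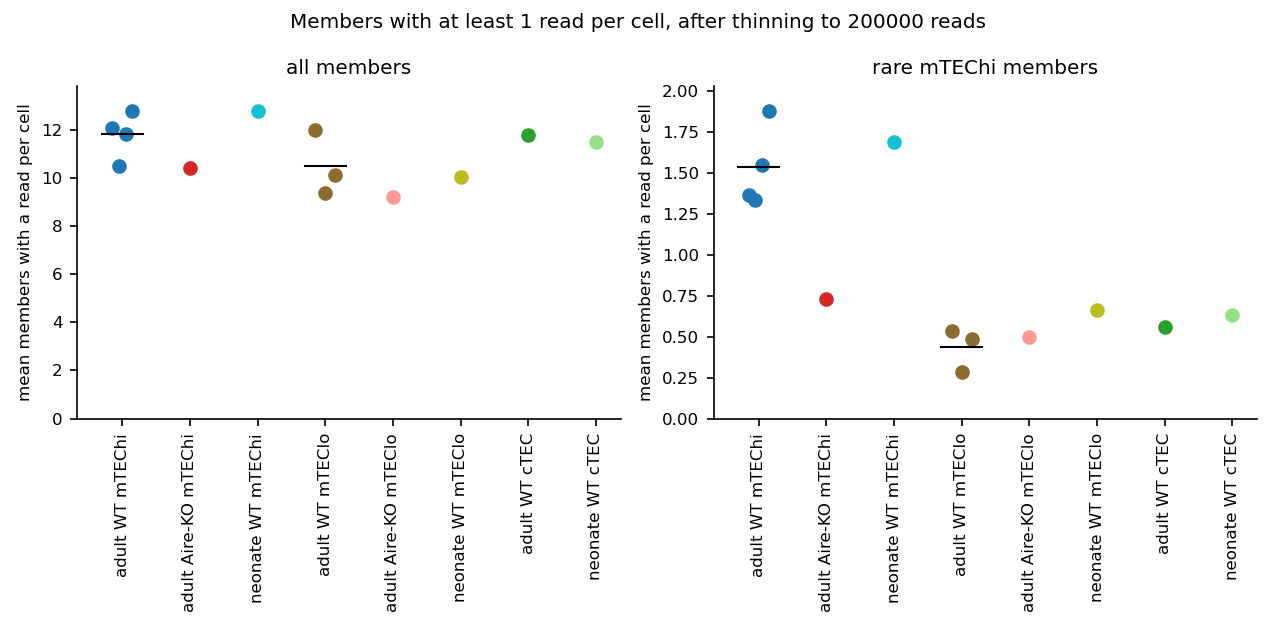
Mean number of members with at least 1 read per cell, cells thinned to 200000 reads, for all members and for the 52 rare members, with 1 point per pool and a bar at the mean of the pools of a group. All members lie between 9.23 and 12.8 per cell in all pools, and rare members lie at 1.33 to 1.88 in WT mTEChi pools and at 0.731 in Aire-KO mTEChi.

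Members lie in clusters of related genes, and the clusters differed. The Cyp2c cluster on chromosome 19 (14 members) held only 4262 reads, and 12 of its members were rare. The cluster on chromosome 7 (13 members of subfamilies 2a, 2b, 2f, 2g, 2s and 2t) held 211567 reads in 5 classes, from the broad Cyp2a5 and Cyp2t4 to rare Cyp2b genes. In single WT mTEChi cells, 76 pairs of members in the same cluster were found together a median of 1.252 times as often as unrelated detection would give, and 56 of them more often. For pairs in different places the median was 1.042, with 56.8% of them more often, against 73.7% in the same cluster. Cyp1a1 and Cyp1a2, side by side on chromosome 9, shared 9 of the 19 cells with at least 5 reads of Cyp1a1, where unrelated detection would give 1.594. Close copies may share reads, and their part in these counts was not tested.

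Promoter letters also differed by class, as a description over the 72 members whose window was found. TATAAA was present in 40.3% of member windows and in 14.2% of all 27025 windows. By class it was in 21 of 40 rare windows (52.5%), 3 of 12 frequent (25.0%) and 1 of 8 broad (12.5%). Close copies in 1 cluster were counted as separate windows. CG dinucleotides were few: the median per window was 2 in rare, 5 in frequent and 5 in broad members and 7 in all windows. Fewer than 5 were found in 92.5% of rare members, against 38.3% of all windows. At the high end were Cyp46a1 with 31, the Cyp26a1 window printed above with 26, Cyp2r1 with 22 and Cyp20a1 with 20. GCGTG, searched on both strands like the other motifs, was in 20.8% of member windows and 32.5% of all windows.

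**Figure D5:**
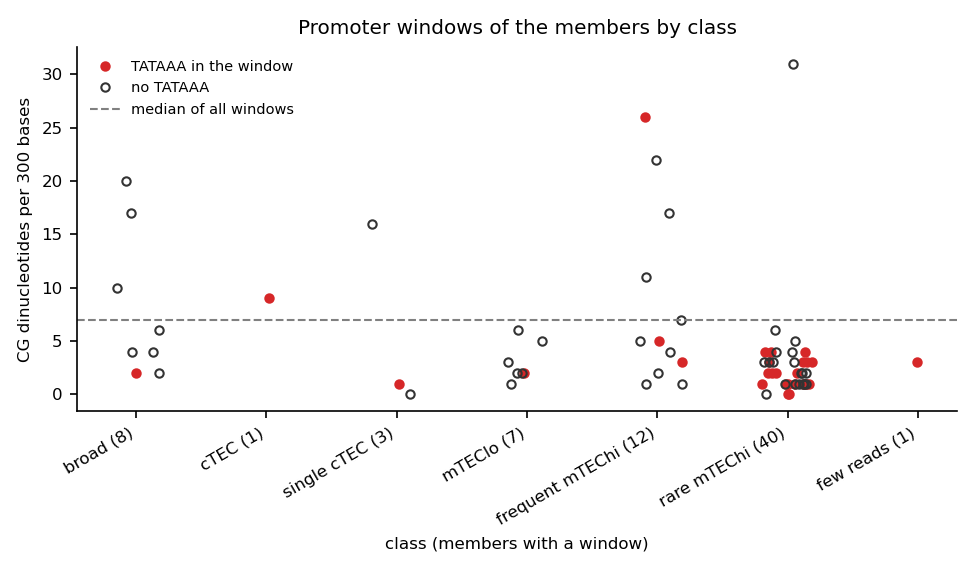
Number of CG dinucleotides in the window from 250 bases before to 50 bases after the start (y axis) for 72 members by class (x axis), with members that hold TATAAA in red and a dashed line at the median of all windows, 7. Rare members have a median of 2 and, with the exception of Cyp46a1 (31), lie under the line, while Cyp26a1, a frequent member, has 26.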

How the data were processed

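RamDA-seq libraries of 1980 single cells, listed as 2148 samples because 168 cells were run more than once, were analysed from the deposited counts, 1 column per cell. Per the study's methods, the authors trimmed reads with fastp (0.20.0), mapped them to mm10 with STAR (2.7.3a), removed poorly mapped reads with SAMtools (1.9) and duplicates with Picard (2.21.1), and made whole-number counts per Ensembl gene with HTSeq (0.11.2) without regard to strand. Overlapping or antisense genes and close copies (Cyp2a, Cyp2c, Cyp2d, Cyp3a, Cyp4a, Cyp11b) can therefore share or lose reads. Cells with 200000 reads or fewer had been removed by the authors. A second deposited table of scores scaled by length and by TMM was not used here.

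Cells are not replicates. Counts were summed over the cells of a group with the same age and sex label, so that 8 groups had 13 pools and the 6 mTEC groups 11. Cells numbered 444, 12, 82 and 82 in adult WT mTEChi pools 1 to 4, 217, 74 and 66 in adult WT mTEClo pools 1 to 3, 338 and 154 in Aire-KO mTEChi and mTEClo, 77 in adult cTEC, and 171, 124 and 139 in neonatal mTEChi, mTEClo and cTEC. How many mice a pool holds is not given, so p-values measure only the spread between these pools. Pool sums were tested in edgeR 4.0.16 (R 4.3.3; glmQLFit and glmQLFTest, TMM, filterByExpr) with 5 residual degrees of freedom, and genes were called at a Benjamini-Hochberg adjusted p under 0.05 over all genes tested with at least a 2-fold difference. All were two-sided, and SE is the log2 difference divided by the square root of F. The script was tested on simulated data. Comparisons that involve adult WT mTEChi or mTEClo share those pools. Comparisons with cTEC used all 13 pools, the others the 11 mTEC pools. DESeq2 1.42.0 and the experimental batches as units were alternatives, with other filters, a block and left-out pools. Counting intervals (95%, exact) and the floor of 3 reads cover counting error only. Levels per kilobase used exon length. Cells were thinned to 200000 reads by sampling in numpy 2.4.6 (Python 3.11.15), and figures were drawn with matplotlib 3.10.9. Doublets were not called, since cells were sorted singly.

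Likeness was Pearson's r of log2(CPM + 1) over adult WT mTEChi cells, for the 6 members of highest CPM with at least 5 reads in at least 20 of them. Pairs used members with at least 5 reads in at least 10 of those cells, and clusters joined members less than 500 kb apart. Promoter windows were matched by symbol (72 of 93). Named members were those of the hormone, vitamin, bile acid and receptor lists, the highest 6 of each class, and those called in a comparison, over batches where the pools called none for Aire-KO. The members and lists were chosen with earlier results of these data known. Some results of the receptor list are not reported here.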

Additional observations from a re-analysis of the deposited data

Results flagged for a closer look

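In the 4 adult WT mTEChi pools, 8 named members had 1 pool whose gap to the nearest other, divided by the range of the pools, was above the 95% limit of Dixon's test. Chance gives this in about 1 of 20 groups of continuous values, a rate that does not hold for counts of a few reads. For Cyp2b13, Cyp2d11 and Cyp2c40 the other 3 pools were at 0, so any read in 1 pool gives it. Pool 1 stood apart for Cyp24a1 (6.46 CPM), Cyp7a1 (0.358 CPM), Cyp2b13 (0.188 CPM), Cyp2d11 (0.0683 CPM) and Cyp2c40 (0.0114 CPM). Pool 4 stood apart for Cyp4a14 (46.3 CPM) and Cyp4f14 (22.4 CPM), and the 12-cell pool 2 for Cyp2c55 (86.7 CPM). Over all 93 members 26 had such a pool, 10 of them in pool 1, 4 in pool 2, 7 in pool 3 and 5 in pool 4.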

How the results depend on the processing

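Counts of members called moved most with the unit and the tool, and the cause was not tested. For adult WT mTEChi against mTEClo they were 15 over pools, 51 over batches and 39 by DESeq2, and 4 to 19 with 1 pool left out. For Aire-KO against WT mTEChi, 0 became 8 over batches and 2 by DESeq2, and for mTEClo 0 became 1 by DESeq2. For neonatal against adult, 0 became 6 over batches and 1 by DESeq2 in mTEChi, and 12 and 5 in mTEClo, where leaving out 1 pool gave 0 to 2. For cTEC, 0 became 4 over batches and 20 by DESeq2 against mTEChi, and 2 and 5 against mTEClo, with 0 to 1 when 1 pool was left out. A block for shared age and sex labels gave 15 calls for mTEChi against mTEClo, with 1 residual degree of freedom, 7 of them shared with the fit without the block. The labels do not say that these pools share mice. Under the block the difference of Cyp11a1 turned to −1.32, and without mTEChi pool 1 that of Cyp24a1 turned to −0.24 (log2), its lowest value with 1 pool left out, the highest being 10.51. The uncalled Aire-KO difference of Cyp17a1 in mTEChi turned to 0.42 without WT pool 2, with −0.65 as its lowest value with 1 pool left out. Broad members numbered 17 at 10% of cells and 7 at 40% of cells or at 5 reads, and frequent members 6 at 40% and 9 at 5 reads. Of the differences of members called or under an unadjusted p of 0.05 in a comparison, and of 4 more given in the text, 80.7% kept direction and side of the threshold, 10.9% newly passed, 8.03% no longer passed and 3 values reversed. Over all 50 named members tested, called or not, 3.83% of the values had the other sign. Ratios of reads with 1 mTEChi pool left out were added after seeing the data. The median log2 difference of all genes between mTEChi and mTEClo was 0.30 by edgeR and 0.58 by DESeq2. Groups of 1 pool, 12 cells in a pool and rare members read in few cells limit what these data can show.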
